A study of Mus musculus with 21 samples.

Results

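Early maturation of mouse cumulus-oocyte complexes (COCs) was examined as the change between uncultured complexes and complexes after 4 h of control culture, across all genes. A COC is an oocyte wrapped in cumulus cells, which are granulosa cells. The comparison took every library of both groups, 6 of the 21 libraries in the series: 3 of uncultured COCs (0 h, no treatment, called START) and 3 of control COCs at 4 h (CTL 4 h), all labelled as biological replicates. The COCs of both groups came from ovaries of wild-type (WT) mice; strain, age and hormone priming are not given in any source used here. CTL COCs were kept at 37 °C and 5% CO2 in α-MEM with 5% fetal bovine serum, mouse epidermal growth factor (EGF), HEPES, pyruvate and DMSO, the solvent control of the inhibitor that the study tested in other libraries. START COCs are labelled as untreated with 0 h in culture, so that EGF, serum, DMSO, handling and time in culture cannot be told apart here. Levels are given as CPM, each gene's share of its library's counts after scaling, not corrected for length, so levels are not compared between genes.

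In the ovary, the luteinizing hormone surge acts on mural granulosa cells, which release EGF-like peptides. These bind the EGF receptor of cumulus cells, and ERK and cyclic AMP signalling then switch on genes for a hyaluronan matrix that swells the complex before ovulation. In parallel, gap junctions and the cyclic GMP supply that hold the oocyte in meiotic arrest are shut down, and cumulus cells leave their follicular state. In culture, EGF in the medium stands in for the peptides of the mural cells.

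Expression was broadly rearranged by 4 h. Of 18192 genes tested, 5734 (31.5%) were called, meaning an adjusted p under 0.05 in edgeR's quasi-likelihood test with Benjamini-Hochberg adjustment, which gives every adjusted p below unless another tool is named. There were 2950 genes higher (16.2%) and 2784 lower (15.3%) at 4 h. DESeq2 called 6287 genes (34.6%). The rises reached further than the falls: 200 genes rose and 27 fell by at least 64-fold, and the median log2 fold change was 1.48 among genes called higher, -1.17 among genes called lower and -0.05 over all genes tested. Of the called genes, 110 had no count in START and 11 had none in CTL 4 h. Their fold changes are set by the fit and are not measured ratios. Such genes, Hapln1 for example, enter the counts at 64-fold, so the difference in reach rests partly on genes at the floor. Scaling by library size alone moved the median of all genes by -0.12 and gave 2579 higher and 3489 lower, so the near balance of both directions rests on the TMM scaling. Of protein-coding genes 2652 rose and 2627 fell, of 14854 tested. Of long noncoding RNAs 142 rose and 92 fell, of 1420 tested. The 3 libraries of each group did not overlap in 7136 genes (39.2%).

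**Figure D1:**
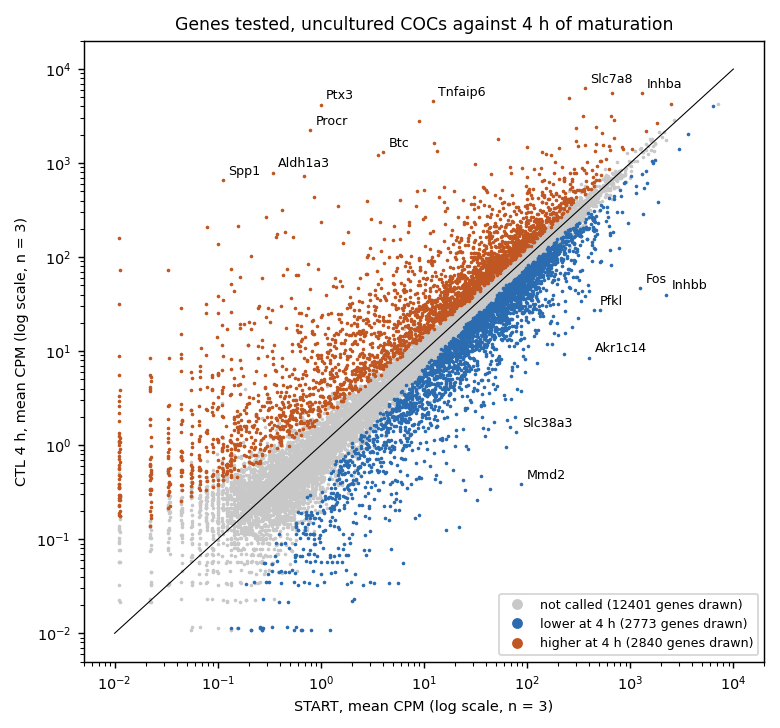
Mean CPM per gene in START (horizontal) and CTL 4 h (vertical), both on log scales, with called genes in colour and the line of equal values in black. Points above the line at the upper left are genes near the floor in START and high at 4 h, such as Ptx3, Procr, Spp1 and Aldh1a3.

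Total counts were 28044739 to 29030444 in START and 29464250 to 31049434 in CTL 4 h. The START libraries differed among themselves in their share of oocyte RNA. The 30 oocyte markers summed to 28960, 18434 and 7204 CPM in START replicates 1 to 3, against 12782, 20717 and 15373 CPM in CTL 4 h, and the 15 granulosa identity genes ran the other way within START, at 12096, 18424 and 26658 CPM. In bulk RNA, more oocyte RNA per complex and fewer cumulus cells cannot be told apart. The mean log2 CPM of the oocyte markers was 7.68 ± 1.01 in START and 7.75 ± 0.35 in CTL 4 h (SD, n = 3), and did not differ detectably (exact two-sided permutation p = 1, smallest possible 0.1). None of the 30 oocyte markers was called, none had an unadjusted p under 0.05, and DESeq2 called 0. The oocyte growth factors Gdf9 and Bmp15 had log2 fold changes of -0.13 ± 0.43 and -0.03 ± 0.45 (± SE). Genes of the cumulus cells that fell by 4 h were mostly highest in START replicate 3, the library poorest in oocyte RNA, and the lists with many such genes are given below also from a fit with the oocyte score of each library as a covariate, which called 7007 genes (38.5%).

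Markers of theca and stroma, of endothelium, of leukocytes and of red cells were low. Their sums hide called changes both ways. Acta2, Des and Cdh5 rose by 2.93 ± 0.35, 3.23 ± 0.89 and 2.58 ± 0.66. Vwf and Ogn fell by 2.75 ± 0.68 and 1.64 ± 0.60, and Ptprc, Cd79a and Alas2 were also called lower. The call of Ogn was lost whichever single library was left out. That of Ptprc was lost without START replicate 3, without CTL 4 h replicate 2 or 3, and in DESeq2. Theca and stroma markers summed to 28.4 to 98.3 CPM in START and 50.4 to 70.9 CPM in CTL 4 h, with Tcf21 at 0 in all 6 libraries. Endothelial markers summed to 33.5 to 81.3 and 58.8 to 72.1 CPM, with Emcn at 0, and leukocyte markers to 5.90 to 10.7 and 2.68 to 8.91 CPM, with S100a9 at 0. Red cell markers summed to 17.1 to 68.7 CPM in START and 7.71 to 14.2 CPM in CTL 4 h, nearly all of it Alas2, with Hba-a2 and Hbb-bt at 0. Mural granulosa markers fell from 320 to 824 CPM to 94.2 to 120 CPM: 6 of 10 were called lower and 1 higher, and the same numbers with the oocyte covariate. Epithelial markers went from 126 to 284 CPM to 445 to 798 CPM. This came from the keratins Krt8 and Krt18 and the adhesion protein Epcam, which rose by 3.20 ± 0.34, 4.42 ± 0.35 and 4.06 ± 0.59 on the log2 scale, while Msln, Upk1b and Krt7 were too low to be tested. The part of other cell types in the results was not tested further.

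**Figure D2:**
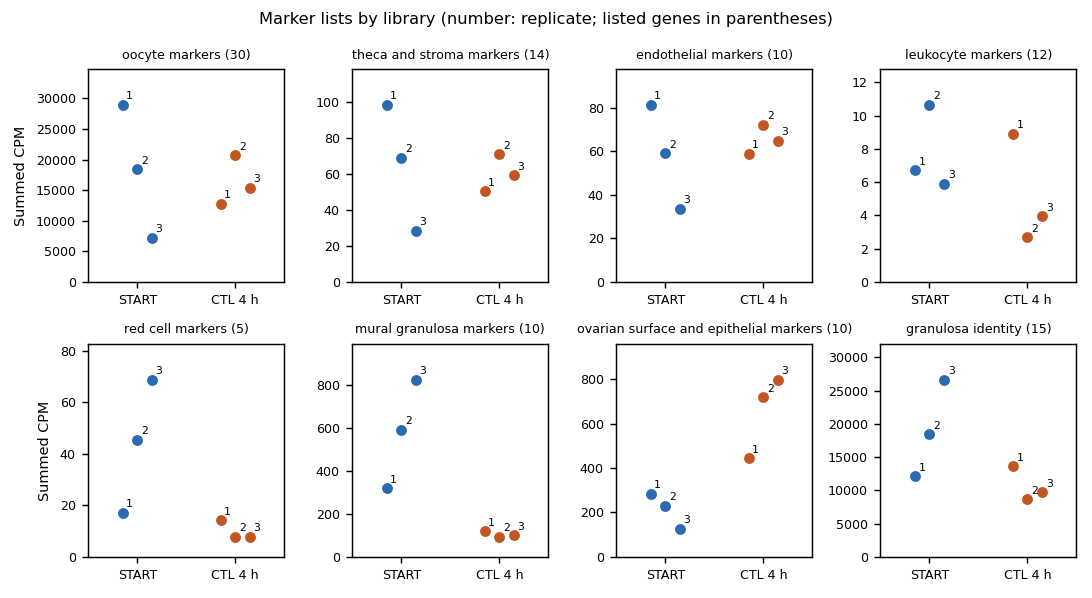
Summed CPM of the marker lists in each library, START in blue and CTL 4 h in orange, with replicate numbers beside the points. Oocyte markers spread from 28960 to 7204 CPM within START and granulosa identity genes in the opposite order; the lists of theca and stroma, endothelial, leukocyte and red cell markers all stay under 100 CPM.

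Of the ligands of the EGF receptor family, 4 of 9 rose and none fell. Btc (betacellulin, chromosome 5, 91505120 to 91550853 on mm39, reverse strand) had 2.76, 4.03 and 5.18 CPM in START replicates 1 to 3 and 1870.0, 1032 and 1019 CPM in CTL 4 h. The groups were far from overlapping, with a log2 fold change of 8.35 ± 0.47 (± SE, as for each gene below; adjusted p = 1.26e-10). Areg (amphiregulin) had 0.399, 0.0328 and 0.205 CPM in START and 114, 81.3 and 115 CPM at 4 h, a change of 8.91 ± 0.66 (adjusted p = 6.11e-09). Ereg (epiregulin) had 0.166, 0 and 0.136 and 207, 106 and 104 CPM (10.38 ± 0.92, adjusted p = 5.64e-08). Both went from a handful of reads to a clear signal in all 3 libraries. Epgn (epigen) rose by 4.63 ± 0.95 at low level. Areg, Ereg and Btc lie near each other on chromosome 5. All 4 risers had lower means at 8 h than at 4 h in control culture: 12.8 CPM for Areg, 367 CPM for Btc, 84.7 CPM for Ereg and 2.39 CPM for Epgn. The receptor itself, Egfr, had 205, 174 and 199 CPM in START and 143, 163 and 119 CPM at 4 h and was not called (-0.44 ± 0.21, adjusted p = 0.12). Among 9 receptors, sheddases and receptor regulators, 1 rose (11.1%) and 2 fell (22.2%), against 16.2% and 15.3% of all genes tested. The riser was Errfi1 (MIG-6), an inhibitor that binds the EGF receptor kinase: it had 154, 88.9 and 56.5 CPM and then 486, 465 and 481 CPM (2.26 ± 0.28, adjusted p = 3.25e-06). Erbb2 fell by 0.84 ± 0.25 and Lrig3 by 0.80 ± 0.27, but neither call held when single libraries were left out: without START replicate 3 their adjusted p were 0.176 and 0.0853.

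To show which of the genes that rose carry a sequence read by cyclic AMP or AP-1 signalling at their start, RefSeq promoter windows (GRCm38.p6, 250 bases before to 50 after the start) were searched for the cyclic AMP response element TGACGTCA, which reads the same on both strands, and the AP-1 element TGAGTCA, or TGACTCA on the other strand. The search took in 14444 of the 14854 protein-coding genes tested, and 2557 of the 2652 that rose. The rest were set aside before it, Crem and Smad7 among them. Of the 100 genes of the naming rule that rose, 77 had a window that was searched. Whether the others carry either element was not tested. The cyclic AMP element stood in the windows of Areg and Errfi1, and the AP-1 element in those of 8 genes. Among the 15017 windows of the tested protein-coding genes that were searched, 417 (2.78%) held the first and 603 (4.02%) the second. A gene can have several windows, so counts of genes are not set against these shares. No excess of either element among the named genes was shown, and its use in these cells was not tested. The comparison of these shares between genes that rose and the rest is void, since fewer than 80% of the protein-coding genes that rose had a window. The 250 bases before the start are shown 5′ to 3′ with the element in capitals, for both genes with the cyclic AMP element and for 4 genes with the AP-1 element: Procr, Nts and Il1a, which had the largest changes, and Tnfaip6 of the expansion matrix. The AP-1 search was chosen after values were seen.
Areg (chr5:91139349-91139598, + strand, element 61 bases before the start): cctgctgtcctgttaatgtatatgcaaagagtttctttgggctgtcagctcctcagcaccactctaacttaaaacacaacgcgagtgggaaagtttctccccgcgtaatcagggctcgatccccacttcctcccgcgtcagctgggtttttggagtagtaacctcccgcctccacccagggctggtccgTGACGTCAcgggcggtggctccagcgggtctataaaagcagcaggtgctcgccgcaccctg
Errfi1 (chr4:150854820-150855069, + strand, element 51 bases before the start): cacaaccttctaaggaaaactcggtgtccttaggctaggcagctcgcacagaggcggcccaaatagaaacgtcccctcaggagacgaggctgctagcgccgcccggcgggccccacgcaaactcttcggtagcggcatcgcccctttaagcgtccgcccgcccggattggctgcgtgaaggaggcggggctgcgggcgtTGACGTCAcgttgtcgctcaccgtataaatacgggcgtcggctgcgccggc
Procr (chr2:155750967-155751216, + strand, element 154 bases before the start): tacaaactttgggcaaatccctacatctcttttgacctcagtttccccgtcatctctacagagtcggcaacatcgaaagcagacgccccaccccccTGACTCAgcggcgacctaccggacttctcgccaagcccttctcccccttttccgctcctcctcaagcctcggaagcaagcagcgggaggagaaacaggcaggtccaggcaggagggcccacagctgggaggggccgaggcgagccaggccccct
Nts (chr10:102490419-102490668, - strand, element 207 bases before the start): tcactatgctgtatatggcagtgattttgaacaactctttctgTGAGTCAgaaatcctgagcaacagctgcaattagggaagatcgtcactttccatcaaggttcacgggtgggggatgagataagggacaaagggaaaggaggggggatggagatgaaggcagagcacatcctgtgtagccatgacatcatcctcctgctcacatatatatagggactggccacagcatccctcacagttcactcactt
Il1a (chr2:129309973-129310222, - strand, element 12 bases before the start): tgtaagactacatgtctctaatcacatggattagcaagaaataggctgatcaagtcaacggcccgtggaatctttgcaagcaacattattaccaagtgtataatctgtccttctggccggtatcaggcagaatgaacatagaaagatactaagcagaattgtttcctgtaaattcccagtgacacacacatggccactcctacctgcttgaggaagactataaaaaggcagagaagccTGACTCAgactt
Tnfaip6 (chr2:52037863-52038112, + strand, element 142 bases before the start): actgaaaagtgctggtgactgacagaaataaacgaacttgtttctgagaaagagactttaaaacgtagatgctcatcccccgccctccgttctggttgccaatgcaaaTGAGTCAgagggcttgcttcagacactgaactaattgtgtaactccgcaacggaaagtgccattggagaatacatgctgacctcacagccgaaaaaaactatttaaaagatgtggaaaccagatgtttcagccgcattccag

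Of 18 feedback inhibitors and targets of ERK signalling, 10 were called higher and none lower. The median log2 fold change of the 18 was 1.54, against -0.05 over all genes. Dusp6, a phosphatase that inactivates ERK in the cytoplasm, had 37.0, 33.3 and 28.9 CPM in START and 354, 304 and 378 CPM at 4 h. The groups stood far apart, with little spread inside either (3.38 ± 0.15, adjusted p = 4.40e-12). Its relatives Dusp4 and Dusp5 rose by 4.65 ± 0.34 and 3.04 ± 0.30, and the early response gene Ier3 by 4.10 ± 0.23. Spry2 and Spred2, which dampen signalling between receptor and RAF, rose by 2.94 ± 0.32 and 2.05 ± 0.22. Their relatives Spry1, Spry4, Spred1 and Spred3 were not called (-0.20 ± 0.66, -0.12 ± 0.40, 0.38 ± 0.15 and -0.60 ± 0.54). Neither were Dusp1 and Dusp7 (-0.22 ± 0.28 and -0.06 ± 0.38). The ETS factors Etv4 and Etv5, known ERK targets, rose by 2.85 ± 0.51 and 2.33 ± 0.24 and were higher still at 8 h (10.8 and 42.1 CPM, from 3.31 and 20.9 CPM at 4 h). Spry2, Spred2, Etv4, Etv5 and the genes given here as not called were picked after their values were seen.

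Among 22 immediate-early genes the AP-1 and EGR families split. Fos, the first partner of AP-1 to appear after a stimulus, had 1048, 1344 and 1350.4 CPM in START and 64.2, 32.6 and 44.3 CPM at 4 h. START was thus the high group, and the libraries were far from overlapping (-4.73 ± 0.50, adjusted p = 5.06e-07; chromosome 12, 85520664 to 85524047 on mm39). Egr1 had 483, 677 and 885 and then 240.4, 133 and 178 CPM (-1.89 ± 0.44, adjusted p = 0.00221), and Atf3, a stress-induced member of the ATF family, 94.3, 55.7 and 75.2 and 8.15, 6.65 and 7.44 CPM (-3.34 ± 0.22). Fosb, Jun, Klf6 and Myc, picked with the other genes of this paragraph that the naming rule leaves out, fell by 3.89 ± 0.43, 1.06 ± 0.18, 0.80 ± 0.17 and 0.83 ± 0.23. In contrast, Fosl1 (FRA-1), a FOS family member that follows sustained ERK activity, went from 0.166, 0.0328 and 0.136 CPM to 7.18, 7.45 and 12.1 CPM (6.27 ± 0.58, adjusted p = 9.91e-08). Egr3 had 2.16, 0.918 and 1.06 CPM in START and 64.8, 52.2 and 64.6 CPM at 4 h, a rise of 5.45 ± 0.42, while Nr4a3 rose by 3.81 ± 0.36. Ier5 rose by 3.95 ± 0.23. In all 7 of the 22 fell (31.8%) and 5 rose (22.7%), against 15.3% and 16.2% of all genes tested, with a median of -0.36. Nr4a1 had 335, 261 and 321 and 295, 181 and 238 CPM, groups that overlap, and was not called (-0.36 ± 0.27, adjusted p = 0.379). Fos, Fosb and Atf3 had means of 37.2, 4.65 and 5.41 CPM at 8 h, so the START level was not regained in control culture at that time.

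**Figure D3:**
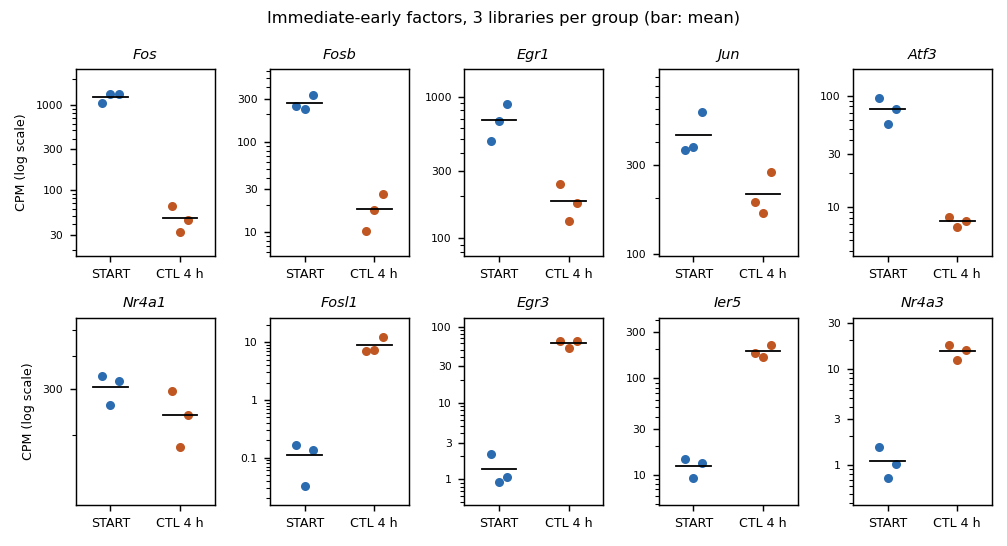
CPM of 10 immediate-early genes in each library, on log scales that differ between panels; bars are means of 3 libraries. Fos, Fosb, Egr1, Jun and Atf3 are high in START, Nr4a1 overlaps between groups, and Fosl1, Egr3, Ier5 and Nr4a3 are high in CTL 4 h.

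Of 17 genes of cyclic AMP signalling and its feedback, 7 rose (41.2%) and 3 fell (17.6%), against 16.2% and 15.3% of all genes tested. Crem, a transcription factor gene that cyclic AMP switches on through its inner promoter, had 10.3, 9.18 and 11.3 CPM in START and 376, 236 and 188 CPM at 4 h (4.70 ± 0.26, adjusted p = 1.15e-10). The phosphodiesterases Pde4b and Pde4d, which degrade cyclic AMP, rose by 3.74 ± 0.42 and 3.11 ± 0.34, and the kinase gene Sik1, a target of cyclic AMP signalling, by 1.75 ± 0.19. Adcy3, an adenylyl cyclase, rose by 2.22 ± 0.27, and Prkar2b, the type II regulatory subunit of protein kinase A, fell by 1.79 ± 0.35 (picked after its values were seen). Crem was down to 46.5 CPM at 8 h, and Pde4b to 11.9 CPM. The list's median was 0.04, and it turned to -0.08 with scaling by library size alone. Without START replicate 1, 5 were lower, and without START replicate 3 or CTL 4 h replicate 1, 1 was.

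Of 14 genes of the signalling that holds the oocyte in meiotic arrest, 5 were called lower (against 15.3% of all genes), 1 (Adcy3) higher and 8 were not called, with a median of -0.25. Npr2, the cumulus receptor for C-type natriuretic peptide and the source of the cyclic GMP that reaches the oocyte, had 442, 574 and 810.2 CPM in START and 226, 231 and 352 CPM at 4 h. No CTL library reached the lowest START library, and the fall was 1.17 ± 0.25 on the log2 scale (adjusted p = 9.95e-04). Its ligand gene Nppc fell by 1.91 ± 0.35 from a low level. Impdh1 and Impdh2, which make the guanine nucleotides for cyclic GMP, fell by 1.50 ± 0.21 and 1.14 ± 0.20. Gja1, connexin 43 of the gap junctions between cumulus cells, had 4355, 6233 and 8413 and 5195, 3217 and 3704 CPM and overlapped between groups. It was called lower (-0.65 ± 0.22, adjusted p = 0.0286), but not without START replicate 3 (-0.34, adjusted p = 0.258), without CTL 4 h replicate 2 (-0.52, 0.0994) or without CTL 4 h replicate 3 (-0.59, 0.104). Npr2, Impdh1 and Impdh2 were all highest in START replicate 3. With the oocyte score as covariate, 5 of the 14 were lower and 3 higher; without CTL 4 h replicate 2 or START replicate 3, 2 were higher.

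All 17 of the listed transcription regulators of ovulation and granulosa state were called, 9 higher and 8 lower. Runx1 had 27.7, 29.7 and 34.3 CPM in START and 523, 357 and 429.6 CPM at 4 h (3.84 ± 0.22, adjusted p = 1.89e-10), and Runx2 1.43, 1.38 and 1.77 and 68.1, 53.9 and 43.9 CPM (5.18 ± 0.52). Cited2 rose by 2.08 ± 0.22 and Cited4 by 3.50 ± 0.61. Cebpb, required with Cebpa downstream of ERK in granulosa cells of mice, rose by 1.94 ± 0.55 and Cebpa by 2.56 ± 0.34. The call of Cebpb was lost without START replicate 2 (1.76, adjusted p = 0.0503). Pgr, the progesterone receptor that mural cells induce, rose but stayed near 1 CPM: it had 0.166, 0.0328 and 0.136 CPM in START and 1.66, 0.677 and 0.737 CPM at 4 h (3.15 ± 0.75, adjusted p = 0.00284). Among those called lower, Nr5a2 fell by 2.07 ± 0.24, Foxo1 by 1.87 ± 0.22, Nr5a1 by 1.76 ± 0.30, Gata6 by 1.60 ± 0.23 and Foxl2 by 1.29 ± 0.35. The others were Nrip1, Foxo3 and Gata4, which fell by 0.98 ± 0.17, 0.71 ± 0.26 and 0.51 ± 0.19. All but Nr5a2, like Cebpa, were picked after their values were seen. Without START replicate 3, 5 were called lower, and with the oocyte covariate 8.

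The genes of the expanding matrix had the largest share of risers of the 42 lists, 9 of 12, with 1 lower. Their median log2 fold change was 3.96, or 2.49 with Hapln1, which had no count in START, taken at the limit that 3 counts set. Has2, which spins the hyaluronan chain, had 12.3, 12.9 and 15.0 CPM in START and 1511, 1037 and 1443 CPM at 4 h (6.63 ± 0.44, adjusted p = 1.40e-09). Tnfaip6, which transfers protein onto hyaluronan, had 13.2, 11.4 and 11.8 and 6291, 3062 and 4225 CPM, and Ptx3, the pentraxin that crosslinks it, 1.26, 1.15 and 0.58 and 4754, 3226 and 4540.3 CPM. In all 3 genes the groups were far from overlapping, and replicate 1 was the highest CTL library. Cd44, a hyaluronan receptor, rose by 6.88 ± 0.47 and reached 30.6 CPM. The proteoglycan Vcan and the protease Adamts1 that cuts it rose by 1.44 ± 0.30 and 1.40 ± 0.27, while Adamts5, another protease for it, fell by 2.10 ± 0.38. Cd44, Vcan, Adamts1 and Adamts5 were picked after their values were seen. The matrix genes differed in how long they stayed up. Between 4 h and 12 h the control mean of Has2 went from 1330 to 107 CPM. Tnfaip6 went from 4526 to 338 CPM and Ptx3 from 4173 to 476 CPM, but Vcan from 465 to 501 CPM.

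Of 9 genes of the hexosamine route and of hyaluronan precursors, 5 rose and 1 fell. The 5 include Ogt, which attaches N-acetylglucosamine to proteins and makes no precursor (0.44 ± 0.15), while Pgm3 and Ugp2, which do make precursors, were not called (-0.40 ± 0.26 and -0.47 ± 0.20); these 3 were picked after their values were seen. Ugdh, which makes UDP-glucuronate, had 76.8, 76.0 and 116 CPM in START and 1202, 688 and 767 CPM at 4 h (3.31 ± 0.30, adjusted p = 8.41e-08). Gfpt2, the entry enzyme of the hexosamine route, rose from 166, 185 and 254 to 1628, 1286 and 1438 CPM (2.84 ± 0.25), and its paralogue Gfpt1, picked after its values were seen, by 0.88 ± 0.21. Uap1, the last step to UDP-N-acetylglucosamine, rose by 1.34 ± 0.25. Amdhd2, which runs the route backwards, fell by 1.13 ± 0.24. Leaving out START replicate 1 gave 4 higher and 3 lower.

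Of 12 genes of the prostaglandin system 5 rose and 1 fell. Ptgs2 (cyclooxygenase 2) had 10.5, 5.71 and 10.5 CPM in START and 3761, 1829 and 2818 CPM at 4 h (8.30 ± 0.36, adjusted p = 3.25e-12). Pla2g4a, the phospholipase that frees its substrate, rose by 2.21 ± 0.34. The prostaglandin E receptor Ptger2, which raises cyclic AMP in cumulus cells, had 0.831, 1.05 and 1.60 CPM and then 14.4, 11.5 and 9.51 CPM (3.34 ± 0.32), and the receptor Ptger4 and the transporter Slco2a1, picked after their values were seen, rose by 1.85 ± 0.31 and 5.40 ± 0.96. Hpgd, the enzyme that inactivates prostaglandins, went the other way, from 131, 156 and 238 CPM to 14.7, 12.5 and 8.77 CPM (-3.86 ± 0.36, adjusted p = 1.21e-07). The prostaglandin E synthase Ptges had 300.1, 343 and 523 and 262, 288 and 380.3 CPM and was not called (-0.33 ± 0.25, adjusted p = 0.388).

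**Figure D4:**
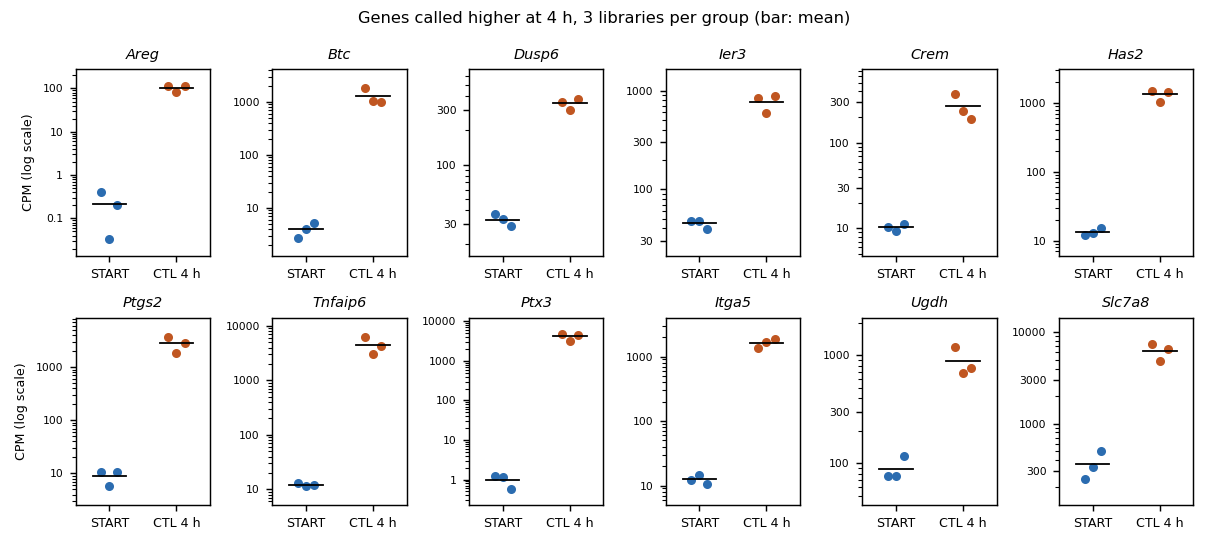
CPM in each library for 12 genes called higher at 4 h, on log scales that differ between panels; bars are means of 3 libraries. In every panel all 3 CTL 4 h libraries lie above all 3 START libraries, with the widest gap for Ptx3.

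Cytokine genes moved both ways: 9 of 19 rose (47.4%) and 5 fell (26.3%), against 16.2% and 15.3% of all genes tested. Several of the risers were of the interleukin 6 family, whose members share the receptor chain gp130. The family member Ctf1, picked after its values were seen, was not called (-0.63 ± 0.41). Il11 had 0.0665, 0.0656 and 0 CPM in START and 31.4, 24.7 and 30.0 CPM at 4 h (9.20 ± 0.69, adjusted p = 6.87e-09), and Clcf1 0.199, 0.0328 and 0.102 and 33.5, 27.2 and 43.7 CPM (8.23 ± 0.44). Il6 itself went from 1 count in the 3 START libraries to 340 counts at 4 h, a ratio of 346 (95% interval 61.6 to 13686, counting error only). Lif and the receptor gene Osmr, picked after their values were seen, rose by 5.60 ± 0.55 and 2.21 ± 0.44. Il1a had no count in START and 369 at 4 h, at least 125-fold higher against 3 counts over the group, and its receptor Il1r1 rose from 54.5, 71.7 and 84.8 to 926, 688 and 731 CPM (3.47 ± 0.19, adjusted p = 1.15e-10). The 5 that fell were targets and inhibitors of NF-kappa-B and STAT signalling and gp130: Cxcl1 fell by 2.79 ± 0.45, Nfkbia by 1.26 ± 0.19, Tnfaip3 by 1.17 ± 0.31, Socs3 by 0.91 ± 0.23 and Il6st by 0.41 ± 0.14 (all 5 picked after their values were seen). Without CTL 4 h replicate 1, 3 were called lower.

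Adhesion and cytoskeleton genes rose. Of 13 integrin subunits 8 were called higher and none lower, with a median of 1.45. Itga5, the alpha chain of the fibronectin receptor, had 12.2, 14.8 and 10.4 CPM in START and 1334, 1661 and 1887 CPM at 4 h (7.03 ± 0.26, adjusted p = 1.52e-12). Itga2, of a collagen and laminin receptor, had 59.1, 106 and 135 and 1967, 1106 and 1377 CPM (3.89 ± 0.33), and Itgav rose by 2.27 ± 0.25. Among 19 genes of actin and of the SRF and YAP pathways, 12 rose and 4 fell. The actin-binding proteins Tpm1, Tpm4 and Tagln2 rose by 3.73 ± 0.21, 3.06 ± 0.29 and 5.38 ± 0.36, and Vim, the intermediate filament of mesenchymal cells, from 28.4, 30.1 and 32.4 to 419, 282 and 405 CPM (3.61 ± 0.20). The 4 that fell, named after their values were seen, were the YAP targets Ccn1, Ccn2 and Amotl2 and the factor Srf, which fell by 2.76 ± 0.28, 4.06 ± 0.52, 2.12 ± 0.25 and 0.95 ± 0.19. Ccn1 was back at 251 CPM at 12 h, from 34.4 CPM at 4 h and 234 CPM in START.

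Of 19 basement membrane and matrix protein genes 11 rose and 1 fell. The collagen IV chains Col4a1 and Col4a2, which lie head to head, moved alike, with 185, 151 and 325 CPM of Col4a1 at 4 h against 9.64, 8.49 and 3.14 CPM in START, and 76.3, 63.5 and 129.7 against 8.24, 7.77 and 4.06 CPM of Col4a2. Their log2 fold changes were 4.96 ± 0.37 and 3.75 ± 0.29. Tnc (tenascin C) rose by 2.84 ± 0.21. Spp1 (osteopontin) had 0.0332, 0.0656 and 0.239 CPM in START and 575, 571 and 815 CPM at 4 h, and was still far from its 12 h mean of 16810.2 CPM. The laminin chain Lamc1, the protease Plau and the metalloproteinase inhibitor Timp1, chosen after their values were seen, rose by 1.09 ± 0.17, 3.15 ± 0.36 and 3.08 ± 0.38. The 1 gene that fell was Agrn (-1.30 ± 0.34), which was not called lower without CTL 4 h replicate 1; without START replicate 1, 2 genes of the list were lower.

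In the pathways of secreted signals, feedback inhibitors of the BMP and TGF-beta pathways rose, 9 of 18, with 1 lower. Bmper, a secreted BMP binder, had 11.1, 25.3 and 11.0 CPM in START and 521, 281 and 356 CPM at 4 h (4.61 ± 0.37, adjusted p = 1.46e-08). The inhibitory Smad7 rose by 2.11 ± 0.19 and Id4 by 2.95 ± 0.34. The BMP antagonist Grem1, picked after its values were seen and induced by the oocyte in cumulus cells of mice, rose by 1.79 ± 0.34. Inhba, the activin beta A chain, had 689, 1331 and 1850.3 CPM and then 6707, 4282 and 5599 CPM (2.10 ± 0.33), while Inhbb, the beta B chain, dropped from 836, 2267 and 3553 CPM to 39.5, 24.0 and 56.0 CPM (-5.80 ± 0.54, adjusted p = 1.03e-07). START replicate 1 was the lowest START library for both, and the groups did not overlap for either.

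Notch genes mostly rose, 6 of 11, with 1 lower. Notch2 had 39.2, 42.2 and 45.7 CPM in START and 178, 170.4 and 210.1 CPM at 4 h (2.14 ± 0.21), the coactivator Maml2 rose by 3.02 ± 0.33 and the target Heyl by 2.23 ± 0.34, while the target Hey2 fell by 2.51 ± 0.40. The ligand Jag1, picked after its values were seen, had 873, 506 and 230.0 CPM in START, where replicate 1 was highest and replicate 3 lowest, as for the oocyte markers, and 2502, 1816 and 2013 CPM at 4 h (1.98 ± 0.36, adjusted p = 2.50e-04). Every CTL library was above every START library for Jag1. Hedgehog genes went the other way, with 7 of 11 lower, 1 higher and a median of -1.69. The ligands Ihh and Dhh, by which granulosa cells signal to theca cells, fell by 2.27 ± 0.40 and 3.06 ± 0.43, and the receptor and target Ptch1 by 1.69 ± 0.27; the coreceptor Boc rose by 2.96 ± 0.23. Ihh, Dhh and Ptch1 were highest in START replicate 3, and with the oocyte covariate 7 hedgehog genes were lower and 2 higher. Without CTL 4 h replicate 1 there were 5 lower and 2 higher, without START replicate 1 there were 6 and 2, and without START replicate 3 there were 5 and 1. Of 18 WNT pathway genes 6 rose (33.3%) and 2 fell (11.1%), against 16.2% and 15.3% of all genes tested. The median of these WNT genes was 0.03 and turned to -0.10 with scaling by library size alone. Leaving out single libraries gave 4 to 6 higher and 1 to 3 lower. Wnt11 had 1.23, 0.951 and 0.819 CPM in START and 292, 171 and 240.4 CPM at 4 h (7.87 ± 0.38, adjusted p = 1.80e-11).

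Proprotein convertases cut precursors of growth factors, proteases and matrix proteins, and are the enzymes the study inhibits in other libraries. Of 8 tested, 3 rose (37.5%) and 1 fell (12.5%) in these libraries without the inhibitor, against 16.2% and 15.3% of all genes tested. Pcsk6 had 6.02, 7.94 and 7.30 CPM in START and 69.3, 89.2 and 102 CPM at 4 h (3.61 ± 0.26, adjusted p = 3.91e-09). Furin had 158, 136 and 87.0 and 235, 269 and 354 CPM, with no overlap (1.17 ± 0.20, adjusted p = 1.09e-04). The small rise of Pcsk7 (0.42 ± 0.15) was lost without START replicate 1 (0.29, adjusted p = 0.166) and without START replicate 2 or CTL 4 h replicate 3, and the fall of Mbtps1 (-0.81 ± 0.21) without START replicate 3 (-0.47, adjusted p = 0.0737). Of the oocyte factors and the KIT pair, 1 of 6 rose (16.7%, against 16.2% of all genes tested): Bmp6 had 196, 137 and 106 CPM in START and 449, 431 and 486 CPM at 4 h (1.64 ± 0.16, adjusted p = 2.69e-07). Fgf8 and Kitl had log2 fold changes of -0.28 ± 0.51 and 0.38 ± 0.44, neither called.

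Genes of the unexpanded cumulus and of granulosa identity fell. In the first list 11 of 15 were called lower and 1, Inhba, higher (median -1.73), and in the second 10 of 15 were lower and none higher (median -1.29); the lists share 8 genes. Fshr, the receptor for follicle-stimulating hormone, had 205, 307 and 433 CPM in START and 30.0, 17.4 and 19.3 CPM at 4 h (-3.82 ± 0.31, adjusted p = 1.89e-08). Slc38a3, an alanine transporter that mouse cumulus cells express under the influence of the oocyte, had 47.9, 76.8 and 112 CPM and then 1.17, 1.84 and 1.12 CPM (-5.83 ± 0.52). Kctd14 fell from 14.9, 38.3 and 44.5 to 0.276, 0.226 and 0.281 CPM (-6.94 ± 0.55). All 3 were lowest in START replicate 1 and highest in START replicate 3, the reverse of the oocyte markers, and no CTL library reached the lowest START library. With the oocyte covariate, 12 and 11 genes of these lists were lower, and without START replicate 3, 11 and 7. Amh had 43.6, 86.9 and 21.0 and 5.94, 74.2 and 38.9 CPM and was not called (-0.35 ± 1.10, adjusted p = 0.893), and neither was Fst (0.11 ± 0.28) or Inha (-0.74 ± 0.31); these 3 were picked after their values were seen.

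Of 14 steroid genes 4 rose (28.6%) and 5 fell (35.7%), against 16.2% and 15.3% of all genes tested. Star, which brings cholesterol into mitochondria, had 1.76, 1.64 and 2.32 CPM in START and 43.4, 36.3 and 33.7 CPM at 4 h (4.31 ± 0.62, adjusted p = 1.89e-05). The electron donors Fdx1 and Por rose by 3.50 ± 0.26 and 1.94 ± 0.17. Sult1e1, which inactivates estrogens by sulfation, rose from 0.266, 0.0328 and 0.171 CPM to 433, 118 and 97.3 CPM (10.40 ± 1.05, adjusted p = 2.79e-07). The estrogen-making enzymes fell: Hsd17b1 had 208, 398 and 479 and 44.7, 32.2 and 39.0 CPM (-3.23 ± 0.35), and the aromatase Cyp19a1 55.1, 77.0 and 103 and 32.3, 22.5 and 23.0 CPM (-1.60 ± 0.35, adjusted p = 0.00129). Akr1c14, a hydroxysteroid dehydrogenase with close relatives in the genome, fell from 195, 423 and 577 to 12.4, 7.13 and 6.17 CPM (-5.54 ± 0.72). Lhcgr, the receptor for luteinizing hormone, was at 0.266, 1.15 and 1.30 CPM in START and 0.0345, 0.581 and 0.14 CPM at 4 h, and was not called (adjusted p = 0.222).

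Of the genes of cholesterol synthesis and uptake, 12 of 23 were lower and none higher (median -0.62). Mvk, mevalonate kinase, had 58.0, 89.1 and 126 CPM in START and 10.5, 7.61 and 13.7 CPM at 4 h (-3.10 ± 0.33, adjusted p = 6.11e-07). Mvd and Lss, later steps of the same route, fell by 1.96 ± 0.26 and 1.58 ± 0.21. Mvk, Mvd and Lss had control means of 59.4, 47.8 and 77.8 CPM at 12 h, against 10.6, 9.95 and 16.3 CPM at 4 h. Scd2, a fatty acid desaturase, followed the same course, with 1353, 1765 and 2416 CPM in START, 463, 258 and 421 CPM at 4 h (-2.28 ± 0.35) and a mean of 2569 CPM at 12 h. Libraries left out gave 9 to 13 lower, and the oocyte covariate 16.

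Of 21 genes of glycolysis and glucose uptake 15 fell and 3 rose (median -0.82). Pfkl, the liver form of phosphofructokinase, had 312, 458 and 567 CPM in START and 25.2, 26.9 and 29.5 CPM at 4 h (-4.03 ± 0.24, adjusted p = 3.44e-10). Pfkm and Tpi1 fell by 2.58 ± 0.20 and 2.21 ± 0.26. Ldha, which makes lactate, had 2207, 2971 and 3672 and 1934, 1104 and 1234 CPM (-1.05 ± 0.25), and the transporters that export lactate and pyruvate, Slc16a1 and, picked after its values were seen, Slc16a3, were lower (-1.93 ± 0.16 and -3.28 ± 0.50). The 3 that rose were the glucose transporters and Hk2: the glucose transporter Slc2a1 had 102, 83.2 and 90.3 CPM and then 276, 217 and 293 CPM (1.51 ± 0.18, adjusted p = 1.75e-06), and Slc2a3 and Hk2, which traps glucose as its phosphate, rose by 1.53 ± 0.45 and 0.70 ± 0.24 (picked after their values were seen). The falling genes named here were all lowest in START replicate 1, the START library richest in oocyte RNA. Without START replicate 3, 10 of 21 were lower, and with the oocyte covariate 17. The rises did not all hold: 1 was called without START replicate 1 and 1 without CTL 4 h replicate 1.

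Amino acid transporters split, with 6 of 17 higher (35.3%) and 5 lower (29.4%), against 16.2% and 15.3% of all genes tested. Slc7a8, the light chain LAT2 for neutral amino acids, had 245, 334 and 507 CPM in START and 7468, 4799.6 and 6533 CPM at 4 h (chromosome 14, 54959666 to 55019403 on mm39), the largest gain in CPM of any called gene (4.11 ± 0.28, adjusted p = 2.24e-09). Another light chain, Slc7a5 (LAT1), picked after its values were seen, moved the opposite way, from 304, 532 and 493 to 87.7, 143 and 146 CPM (-1.82 ± 0.27, adjusted p = 3.15e-05). The taurine transporter Slc6a6 and the arginine transporter Slc7a3 rose by 2.10 ± 0.20 and 5.15 ± 0.46.

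Of 23 genes of folding and stress in the endoplasmic reticulum 9 fell (39.1%) and 4 rose (17.4%), against 15.3% and 16.2% of all genes tested. The chaperone Hspa5 (BiP) had 2798, 3411 and 4777 and 2444, 1681 and 1969 CPM (-0.85 ± 0.24, adjusted p = 0.00962), a call that was lost without START replicate 3 (-0.56, adjusted p = 0.0894); without that library 4 genes of the list were lower. All 9 that fell were highest in START replicate 3, and with the oocyte covariate 11 of the list were lower and 4 higher. Dnajb9 fell by 1.66 ± 0.22. The amino acid response genes Asns, Trib3 and Chac1, which ATF4 controls, rose: Asns had 37.0, 37.6 and 49.0 CPM in START and 276, 247 and 291 CPM at 4 h (2.72 ± 0.26, adjusted p = 1.61e-07), and Trib3 and Chac1 rose by 2.86 ± 0.29 and 2.60 ± 0.33. Of 16 genes of the NRF2 and glutathione system 4 rose (25%) and 4 fell (25%), against 16.2% and 15.3% of all genes tested. Srxn1 (sulfiredoxin) had 0.764, 2.23 and 1.36 CPM and then 421, 268 and 349 CPM (7.89 ± 0.33, adjusted p = 2.91e-12), whereas Gclm, another NRF2 target, fell by 1.08 ± 0.14 and Cat (catalase) by 1.33 ± 0.20. Of 14 BCL2 family genes 2 rose (14.3%) and 1 fell (7.14%), no larger shares than the 16.2% and 15.3% of all genes tested. The risers Bcl2l11 (BIM) and Bmf changed by 0.53 ± 0.14 and 2.09 ± 0.62 and the faller Bid by -1.10 ± 0.25, and the survival gene Mcl1 was not called (-0.41 ± 0.16). The call of Bmf did not hold without CTL 4 h replicate 3 (0.0631) or START replicate 2 (0.0702, both adjusted p), and 4 genes of the family were higher without START replicate 3.

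None of 36 cytoplasmic ribosomal protein genes was called, 1 had an unadjusted p under 0.05, and DESeq2 called 0. None of 10 mitochondrially encoded genes was called, none had an unadjusted p under 0.05, and DESeq2 called 0. A missing call does not show that these levels were equal. Of 22 ribosome biogenesis genes 2 rose (9.09%) and 4 fell (18.2%), against 16.2% and 15.3% of all genes tested. Among them were Nop2 (0.84 ± 0.20) and Nop58 (-0.66 ± 0.15). Leaving out single libraries gave 1 to 6 higher (6 without START replicate 3) and 1 to 3 lower (1 without CTL 4 h replicate 1); the calls of Nolc1 and Polr1a, at -0.43 ± 0.14 and -0.54 ± 0.13, did not hold without CTL 4 h replicate 1 (0.245 and 0.0719, both adjusted p).

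Of 22 DNA replication genes 13 were lower and 1 higher (median -0.75), and of 22 genes of mitosis and the spindle 12 were lower and none higher (median -0.52). Mcm3, of the replicative helicase, had 155, 229 and 269.7 CPM in START and 77.3, 85.2 and 79.9 CPM at 4 h (-1.43 ± 0.16, adjusted p = 6.57e-07), and Mcm2 fell by 1.32 ± 0.18. Ccnb2 (cyclin B2) had 186, 204 and 238 and 68.5, 76.6 and 60.6 CPM (-1.61 ± 0.17), and the proliferation marker Mki67 fell by 1.39 ± 0.19. The replication clamp Pcna, picked after its values were seen, rose by 0.61 ± 0.22, but no replication gene was called higher without CTL 4 h replicate 1 or 3 or START replicate 1 or 2. Of 18 brakes and D cyclins 7 rose (38.9%) and 3 fell (16.7%), against 16.2% and 15.3% of all genes tested. The inhibitor Cdkn1a (p21) had 39.3, 15.1 and 25.5 CPM and then 147, 124 and 204 CPM (2.57 ± 0.29, adjusted p = 1.25e-06). Trp53inp1 and Btg3 rose by 1.31 ± 0.21 and 0.90 ± 0.23, and Cdkn2c fell by 1.60 ± 0.33. Leaving out single libraries gave 11 to 13 replication genes and 8 to 12 mitosis genes lower, and the oocyte covariate 15 and 17. Of the brakes and cyclins 1 to 2 were lower in these leave-outs.

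**Figure D5:**
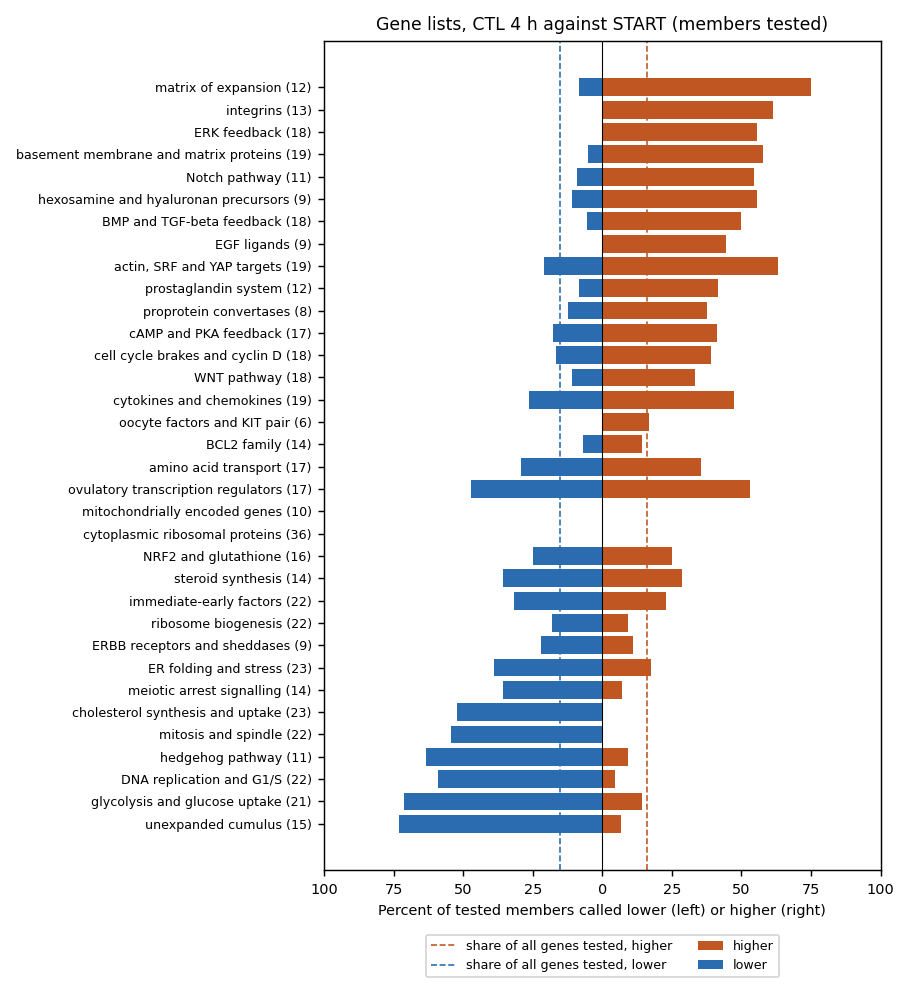
Percent of tested members of each of 34 gene lists called higher (right) or lower (left) at 4 h, with the number of tested members in parentheses; dashed lines mark the shares over all genes tested, 16.2% higher and 15.3% lower. Lists of the expansion matrix, integrins and ERK feedback lie at the top, with members called higher, and those of the unexpanded cumulus, glycolysis and DNA replication at the bottom, with members called lower.

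Over all genes, the largest rises among called genes with at least 10 CPM included Spp1 and Ptx3, described above, and the following. Stmn2, a stathmin of neurons, had no count in START and 39.3, 12.5 and 23.9 CPM at 4 h (at least 746-fold), and Pdyn (prodynorphin) no count and 19.9, 8.32 and 19.3 CPM (at least 468-fold). Csf2rb, the beta chain of the GM-CSF receptor, whose counts may be shared with a close relative, was at least 319-fold higher. The potassium channel gene Kcnk10 had 1 count in START and a ratio of 6545 (95% interval 1174 to 258562). Procr, the endothelial protein C receptor, had 0.731, 0.918 and 0.716 CPM in START and 2729, 1549.7 and 2415 CPM at 4 h, Aldh1a3, which makes retinoic acid, 0.332, 0.59 and 0.102 and 685, 734 and 961 CPM, and Nts (neurotensin) 0, 0.131 and 0.102 and 365, 127 and 129.5 CPM. Their log2 fold changes were 11.46 ± 0.52, 11.15 ± 0.48 and 11.30 ± 0.89. None of these genes was absent from any CTL library.

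Besides Kctd14, Slc38a3 and Inhbb, the largest falls were these. Mmd2 went from 57.8, 62.6 and 142 CPM to 0.414, 0.323 and 0.421 CPM (-7.81 ± 0.54, adjusted p = 2.23e-09), and Fam81a from 37.8, 61.1 and 87.3 to 1.21, 0.774 and 0.912 CPM (-6.00 ± 0.43). Fndc5, the precursor of irisin, fell by 7.30 ± 0.88, Gsg1l, a subunit of AMPA receptors, by 6.94 ± 1.04, the ubiquitin ligase gene Lnx1 by 6.24 ± 0.62, Mybpc3, a myosin-binding protein of the heart, by 6.20 ± 0.84 and Smim10l2a had a change of -5.81 ± 0.57. In CTL at 12 h the means of Mmd2, Fndc5 and Mybpc3 were still 0.268, 0.333 and 0.0486 CPM. Mmd2, Fam81a, Fndc5, Gsg1l and Mybpc3 were all highest in START replicate 3.

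In share of the counts, the largest gains after Slc7a8 were Ephx2, soluble epoxide hydrolase, with 430.3, 622 and 933 CPM in START and 7204, 4210.0 and 5435 CPM at 4 h, and the syndecan Sdc1, with 249, 239 and 275 and 4877, 3982 and 6041 CPM. Both kept high means at 12 h, 6890.1 and 7889.5 CPM. Sidt2, a lysosomal membrane protein, and Bzw1, a regulator of translation, rose by 3.20 ± 0.25 and 2.30 ± 0.24. The largest losses, besides Gja1, Inhbb, Hspa5, Ldha, Scd2, Fos and Tpi1, were Eno1 (-1.25 ± 0.26), the cytokine receptor kinase Jak1 (-1.33 ± 0.21) and the serpin Serpina3a (-2.02 ± 0.42), one of a family of close relatives. For Jak1 the values were 876, 1301 and 1893 CPM in START and 638, 485 and 502 CPM at 4 h.

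Of the 2950 genes called higher at 4 h, 1428 had their highest control mean at 4 h, 530 at 8 h and 992 at 12 h. Since the genes were chosen for high values at 4 h, a highest mean there is favoured by the choice, and the counts are given without a test.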

How the data were processed

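Poly(A) RNA of mouse COCs was sequenced from stranded libraries, per the labels' protocols. The authors deposited raw counts per gene in a single table (56980 genes, 21 libraries). The submitters' processing notes name cutadapt, STAR, HTSeq and the build mm39, without versions; the annotation release, the strand setting and the treatment of shared reads were not found in any source used here. Counts of genes with close relatives or overlapping neighbours are therefore uncertain.

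The tools were R 4.3.3 with edgeR 4.0.16 (limma 3.58.1) and, as an alternative, DESeq2 1.42.0. filterByExpr kept 18192 genes with at least 99.9% of each library's counts, and TMM set the scaling. All 21 libraries entered 1 fit with 7 group means, leaving 14 residual degrees of freedom. CTL 4 h minus START was tested two-sided with the robust quasi-likelihood F test, and p-values were adjusted by Benjamini-Hochberg over every gene tested. Dividing a log2 fold change by the root of its F value gave its standard error (SE), taken without sign. CPM were computed on TMM-scaled totals. With no count in a group, a fold is a limit against 3 counts over that group; such limits and intervals cover counting error only. The median SE was 0.331 and the biological coefficient of variation 29.5%. START libraries spread more (median SD of log2 CPM 0.442) than CTL 4 h libraries (0.279). Every replicate pair differed by more than sampling noise (lowest chi-square 41.4 per degree of freedom). In simulated counts for this comparison (17834 genes, 200 changed), 35% of 2-fold and 77.8% of 4-fold changes were recovered, and 7.44% of 121 calls were false. Far fewer genes changed there than were called in the real counts, so the adjustment was stricter in the simulation.

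The text names a panel, the 10 largest rises and falls in log2 fold change (called, at least 10 CPM in the higher group, no overlap), the 10 largest gains and losses in mean CPM among called genes, all with an established symbol, and up to 4 members of each list with the smallest p. Other genes are said to be picked after their values were seen. The comparison, members and lists were chosen with earlier results of these data known. Lists are described by counts and medians, with no test of the list. Counts in other libraries enter as the shared spread and as control means at 8 and 12 h.

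Some results are not reported here.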

Additional observations from a re-analysis of the deposited data

How the results depend on the processing

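The 5734 calls (2950 higher, 2784 lower) were refitted under 16 alternatives. With the 6 libraries alone 3780 were called (1894 higher) of 16506 tested, with the replicate block on those 6 libraries 2997 (1599 and 1398), and against a change of 2-fold 1945 (1204 and 741). Leaving out 1 library gave 4895 to 5891 calls, 2470 to 3336 higher and 1948 to 3022 lower; without START replicate 1 or 2 there were more lower than higher (2869 and 3022, 2470 and 2594). DESeq2 called 3214 higher and 3073 lower, and the oocyte covariate 3640 and 3367. Of the 169 named genes that were called, 128 kept the call in every alternative, 155 when the 2-fold test and the fits of 6 libraries are set aside, 12 lost it in a leave-out, and none reversed.

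Same-numbered START and CTL 4 h libraries deviated together with correlations of -0.25, 0.19 and 0.12, and not every library correlated best with its own number, so the numbers are not taken to pair the samples; the replicate block on all 21 libraries gave 5867 calls (3026 higher, 2841 lower).

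The difference in oocyte score (0.07 on the log2 scale, exact permutation p = 1) turned to -0.0470 with library size alone, -0.118 without CTL 4 h replicate 2 and -0.475 without START replicate 3, and ran from -0.475 to 0.526 over all leave-outs; the cause was not tested. With 3 libraries a group and a median SE of 0.331, calls of small changes are limited. In the simulation 35% of 2-fold changes were recovered. Only 200 of its 17834 genes changed, against 5734 genes called here. The Benjamini-Hochberg cut was therefore stricter in the simulation, and the 35% is not the recovery in this comparison.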
